A study of Rattus norvegicus with 22 samples.

Results

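IGF and TGF-beta family growth factors were described here in 2 populations of spinal neurons and in randomly sampled cells of the ventral horn. The genes were Igf1, Igf2, Igf1r, Igfbp2, Igfbp5, Tgfb1, Tgfb2, Tgfb3 and Tgfbr1, chosen by name, and every probe set that carries 1 of these 9 symbols in the platform annotation was taken, each probe set apart. They had 19 of the 1050 probe sets of the table, 14 for the IGF genes and 5 for the TGF-beta genes. Igf2 had 5 probe sets, Igf1 4, Igfbp2, Igfbp5, Tgfb3 and Tgfbr1 2 each, and Igf1r and Tgfb1 1 each. Tgfb2 had no matching probe set and was not analysed here, which leaves 8 of the 9 genes. The arrays were Affymetrix rat neurobiology chips (RN_U34), hybridized with amplified RNA of laser microdissected cells from the lumbar cord of neonatal Wistar rats, 1 animal per array and all of postnatal day 0 to 4. The dCINs (descending commissural interneurons, 7 arrays) were filled with rhodamine dextran in the isolated cord, from a cut through a single side of the cord further caudal. The MNs (motor neurons, 7 arrays) were filled with the same tracer from cut ventral roots, and MIX (8 arrays) held cells cut at random from the ventral horn and served as the background. Each labelled population holds those cells whose cut axons took up the tracer, and the cells of an array came from a single animal.

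IGF-1 and IGF-2 are secreted ligands that signal through the tyrosine kinase receptor encoded by Igf1r. In the fluid and matrix around cells they are held by binding proteins, among them those of Igfbp2 and Igfbp5, which can store, deliver or withhold them. IGF signals support the survival of motor neurons and the growth of their axons in development. The TGF-beta ligands encoded by Tgfb1, Tgfb2 and Tgfb3 bind a type II receptor that recruits and activates the type I receptor of Tgfbr1, which in turn phosphorylates Smad proteins. TGF-betas regulate extracellular matrix and cell division in many tissues, and in cultures of neurons they enhance the survival effect of GDNF.

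Signals were linear intensities without unit. Over the 22 arrays the mean signals of all probe sets had a 25th percentile of 33.2 and a median of 48.8. Of the members, 10 were below that median and 9 above. Means below the 25th percentile included Igf1 D00698_s_at (15.8), Igf2 X16703_i_at (23.6) and Tgfbr1 L26110_at (23.6). The paper took Gfap and Mbp, at very low intensity, as not expressed, and Mbp averaged 37.0 in dCINs and 36.0 in MNs here. Whether the dim members were expressed was not tested. Array medians lay between 43.5 and 50.9 for dCINs, 44.3 and 50.8 for MNs, and 45.0 and 48.2 for MIX, and the labels gave 50 to 100 cells per dCIN array, 55 to 250 per MN array and 95 to 187 per MIX array. The labels were checked with 3 genes, each on its brighter probe set. Slc18a3, the vesicular acetylcholine transporter of motor neurons, had a mean ± SD of 566 ± 457 in the 7 dCIN arrays and of 4040 ± 927 in the 7 MN arrays. Nefl, the light neurofilament chain of large neurons, averaged 1682 ± 207 in dCINs and 3867 ± 545 in MNs. Slc32a1, the vesicular transporter of GABA and glycine, averaged 514 ± 131 in dCINs and 125 ± 113 in MNs. On the dimmer probe sets Slc18a3 had 39.8 in dCINs and 50.4 in MNs, Nefl 44.0 and 58.1, and Slc32a1 38.0 and 36.0. None of these was called (limma adjusted p = 0.439, 0.223 and 0.760). MN array 3 stood apart in Slc32a1, with 366 against 35.2 to 149 on the other 6 MN arrays, while its Slc18a3 signal of 3941 lay within the range of the MN arrays. Among dCINs Slc18a3 varied widely, from 55.8 on array 3 to 839 on array 6, 1104 on array 2 and 1133 on array 1. All dCIN arrays were below the lowest MN array, at 2692. Of 10 motor neuron markers 7 were measured, and their summed signal was 6768 to 10978 in dCINs, 18919 to 21723 in MNs and 12378 to 18631 in MIX. Of 9 astrocyte markers 5 were matched by symbol. They summed to 5245 to 8086 in dCINs, 3295 to 5783 in MNs and 3334 to 8472 in MIX. Gfap, which the paper reports as low and unchanged between dCINs and MNs, was not matched and is not in the sum. Most of the sum was Apoe (mean 6027 in dCINs and 3768 in MNs), higher in dCINs (log2 difference 0.69, limma adjusted p = 0.0125). S100b (0.53, adjusted p = 0.170), Slc1a3 (0.38, 0.721), Gja1 (0.12, 0.794) and Slc1a2 (0.06, 0.943) were not called. The 4 measured of 7 oligodendrocyte markers summed to 360 to 560 in dCINs, 355 to 617 in MNs and 245 to 638 in MIX. The 3 measured of 8 microglia and leukocyte markers summed to 64.4 to 104 in dCINs, 78.2 to 126 in MNs and 79.0 to 95.7 in MIX. The single measured gene of 3 Schwann cell markers was S100b, which is also in the astrocyte sum. It had 844 to 1612 in dCINs, 474 to 1036 in MNs and 658 to 1691 in MIX. The 10 markers of vessels and meninges were not analysed here. Whether these cells had a part in the signals of the growth factors was not tested, and in dissected samples fewer cells of a type and less RNA per cell cannot be told apart.

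No growth factor probe set was called differentially expressed between dCINs and MNs. The question was whether the 2 populations differed in these genes, and limma was run on the log2 signals of the 14 arrays, with a call wherever the p, adjusted by Benjamini-Hochberg across the whole table, was under 0.1. The members had 0 calls of 19, against 3.81% of all probe sets, with limma adjusted p from 0.118 to 0.997, and Cyber-T, another regularized test, called 1 (Igfbp5 rc_AI029920_s_at, adjusted p = 0.0760), against the same 3.81% of all probe sets. At an unadjusted p under 0.05, 4 of 19 passed, against 10.9% of all probe sets. Of these, 3 were lower in dCINs (4.86% of all probe sets were) and 1 was higher (6% were). The 3 lower ones were both probe sets of Tgfb3 and 1 of Igfbp5, and the higher one was a probe set of Igf2. By its own rule the study lists Tgfb3 U03491_at and this Igfbp5 probe set as higher in MNs. The median log2 difference, dCINs minus MNs, was -0.11 over the members and -0.03 over all probe sets, with 15 members below 0 and 4 above. With quantile normalization 14 were below 0 and 5 above, and with array medians subtracted 13 and 6. These counts hold several probe sets of the same gene, and the share of all probe sets below 0 was not counted. No member separated the 2 populations without overlap, which 1.62% of all probe sets did.

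**Figure D1:**
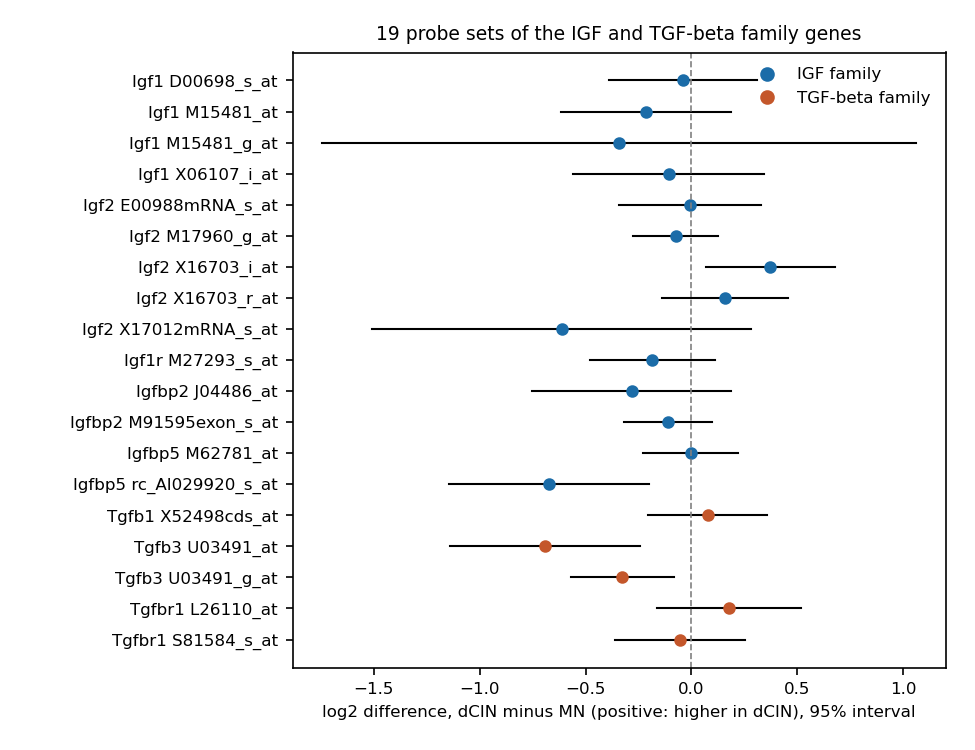
Log2 difference of dCINs minus MNs (x axis, positive means higher in dCINs) for each of the 19 probe sets (y axis), with points for the limma estimate and lines for its 95% interval. The interval lies below 0 for both Tgfb3 probe sets and for Igfbp5 rc_AI029920_s_at, above 0 for Igf2 X16703_i_at, and spans 0 for the other 15, none of the 19 being called after adjustment.

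Tgfb3, a secreted TGF-beta ligand, had lower signals in dCINs than in MNs on both of its probe sets, short of the threshold. On U03491_at the signal was 46.1 to 86.5 in dCINs (median 58.7) and 59.3 to 187 in MNs (median 96.6). In MIX it was 54.0 to 91.0 (median 71.3). All MN arrays but array 3, 6 of 7, were above the highest dCIN array, and only MN array 3, at 59.3, lay among the dCINs. The log2 difference was -0.69 (SE 0.21, 95% interval -1.14 to -0.24), a 1.61-fold higher signal in MNs, with an unadjusted p of 0.00494 and a limma adjusted p of 0.118. By the two-sided exact permutation test over all splits of the 14 arrays, the single value had p = 0.00699. Leaving out single arrays moved the log2 difference between -0.82 and -0.55 and the limma adjusted p between 0.0189 and 0.237. It passed the threshold in 2 of these 14 fits, without MN array 3 (-0.82, adjusted p = 0.0189) and without dCIN array 1 (-0.76, 0.0757), and the smallest difference was the one without MN array 2 (-0.55, 0.176). Within arrays 1 and 2 the difference was -1.10 and within arrays 3 to 7 it was -0.53 (0.198). Without MN arrays 1 and 2, those of the most cells, it was -0.46 (0.283), and with cell number as a covariate also -0.46 (0.415).

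The second Tgfb3 probe set, U03491_g_at, is named for the same sequence record, and its suffix marks a probe set that shares part of its probes with another. Its signal was 49.9 to 84.6 in dCINs (median 60.8), 70.1 to 93.3 in MNs (median 75.0) and 50.4 to 100.6 in MIX (median 62.3). Here 6 of 7 dCIN arrays were below the lowest MN array, and dCIN array 5, at 84.6, lay among the higher MNs. The log2 difference was -0.33 (SE 0.11, 95% interval -0.57 to -0.08, limma adjusted p = 0.206), and the exact permutation p was 0.00932. Without dCIN array 5 it was -0.40, with a limma adjusted p of 0.0389. The 2 probe sets thus ran in the same direction with different arrays as exceptions, and over the 22 arrays their log2 signals had a Pearson correlation of 0.374, as a description of arrays that share the group difference.

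MIX lay near dCINs in both Tgfb3 probe sets. For U03491_at the log2 difference of dCINs minus MIX was -0.14 (SE 0.18, limma adjusted p = 0.962), and that of MNs minus MIX was 0.55 (SE 0.18, unadjusted p = 0.00607, limma adjusted p = 0.245), 1.46-fold higher in MNs. For U03491_g_at dCINs minus MIX was -0.08 (SE 0.13, adjusted p = 0.965) and MNs minus MIX was 0.25 (SE 0.13, adjusted p = 0.419). The 2 contrasts share the 8 MIX arrays, and the MIX cells, cut at random from the ventral horn, had Slc18a3 signals of 1672 to 3801.

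**Figure D2:**
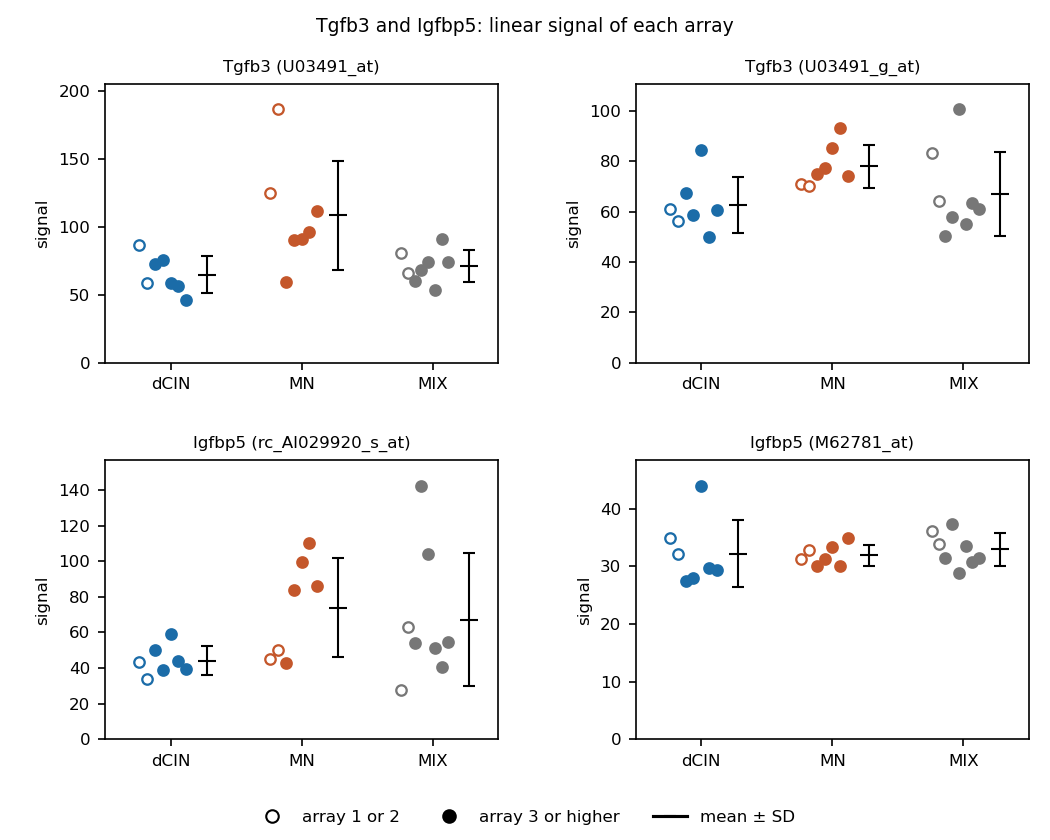
Linear signal (y axis) of each array for the Tgfb3 and Igfbp5 probe sets in dCINs, MNs and MIX (x axis), with open points for arrays numbered 1 and 2, filled points for arrays of higher number, and the mean ± SD beside each group (n = 7, 7 and 8). In Tgfb3 U03491_at 6 of 7 MN arrays are above every dCIN array, in Igfbp5 rc_AI029920_s_at 4 MN arrays are, and in Igfbp5 M62781_at the groups lie on top of each other.

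Tgfb1, the ligand first described in the family, differed little between the groups. Its probe set X52498cds_at had 27.7 to 41.4 in dCINs (median 35.1), 24.9 to 39.3 in MNs (median 34.4) and 26.4 to 35.9 in MIX (median 32.7). The log2 difference of dCINs minus MNs was 0.08 with a 95% interval of -0.20 to 0.36 (limma adjusted p = 0.852). The groups overlapped over almost their whole range, and the interval allows a difference in either direction.

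Tgfbr1, the type I receptor, had probe sets that pointed in opposite directions, neither called. L26110_at had 19.1 to 41.0 in dCINs (median 21.2), 19.4 to 24.5 in MNs (median 22.2) and 20.0 to 27.8 in MIX (median 21.7), with a log2 difference of dCINs minus MNs of 0.18 (SE 0.16, limma adjusted p = 0.723). The 3 dCIN arrays above every MN array were arrays 5, 6 and 7. S81584_s_at had 35.0 to 48.4 in dCINs (median 38.9), 34.2 to 59.6 in MNs (median 39.3) and 34.0 to 46.4 in MIX (median 37.9), with a log2 difference of -0.05 (SE 0.14, adjusted p = 0.903). In both populations the S81584_s_at signal was highest on arrays 1 and 2, which averaged 48.2 in dCINs and 57.0 in MNs, against 38.1 in dCINs and 37.6 in MNs on arrays 3 to 7. The Pearson correlation of the 2 Tgfbr1 probe sets over the 22 arrays was -0.147, so they did not report the same pattern.

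Igf1, the ligand best known for its support of motor neurons, had 4 probe sets that did not vary together. M15481_g_at had 220 to 1020 in dCINs (median 411), 85.9 to 1656 in MNs (median 1022) and 178 to 1185 in MIX (median 701). The MN arrays split in this probe set: arrays 1 and 2 had 85.9 and 89.4, and arrays 3 to 7 had 1656, 668, 1268, 1022 and 1032. The highest MN signal was 19.3 times the lowest, against 4.65 times in dCINs and 6.68 times in MIX. Over all 14 arrays the log2 difference of dCINs minus MNs was -0.34 (SE 0.66, 95% interval -1.74 to 1.06, limma adjusted p = 0.868).

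The direction of that difference was opposite within the 2 sets of arrays. Among arrays 1 and 2 the mean log2 signal was 1.93 higher in dCINs than in MNs (333 in dCINs, 87.7 in MNs, 2 arrays each, no test), and among arrays 3 to 7 it was lower in dCINs by a difference of -1.25 (515 in dCINs, 1129 in MNs, limma adjusted p = 0.0868). MN arrays 1 and 2 were also those with the most cells, 250 and 230 by the labels, against 55 to 115 on the other MN arrays, so array number and cell number cannot be told apart in MNs. Without these 2 MN arrays the log2 difference was -1.38, with a limma adjusted p of 0.0263, and with cell number as a covariate it was -1.58, with 0.0496. On dCIN arrays 1 and 2, which held 60 and 75 cells, the signals of 320 and 346 lay within the range of the other dCINs.

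The probe set M15481_at, named for the same record, ran the other way across the arrays. It had 42.6 to 85.6 in dCINs (median 52.8), 47.4 to 98.9 in MNs (median 56.6) and 45.1 to 61.3 in MIX (median 52.8). Its highest values were on arrays 1 and 2, with 85.6 and 64.6 in dCINs and 98.9 and 87.4 in MNs. The Pearson correlation of the 2 probe sets over the 22 arrays was -0.593. The log2 difference of dCINs minus MNs in M15481_at was -0.22 (SE 0.19, limma adjusted p = 0.721). The other Igf1 probe sets had overlapping groups. D00698_s_at differed by -0.04 on the log2 scale (SE 0.16, adjusted p = 0.943) at signals of 12.5 to 26.9 in dCINs, 13.3 to 20.7 in MNs and 10.3 to 19.5 in MIX. X06107_i_at, whose suffix marks fewer unique probes than usual, had -0.11 (SE 0.21, adjusted p = 0.871) at 17.9 to 39.7 in dCINs, 14 to 35.4 in MNs and 16.9 to 27.2 in MIX.

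**Figure D3:**
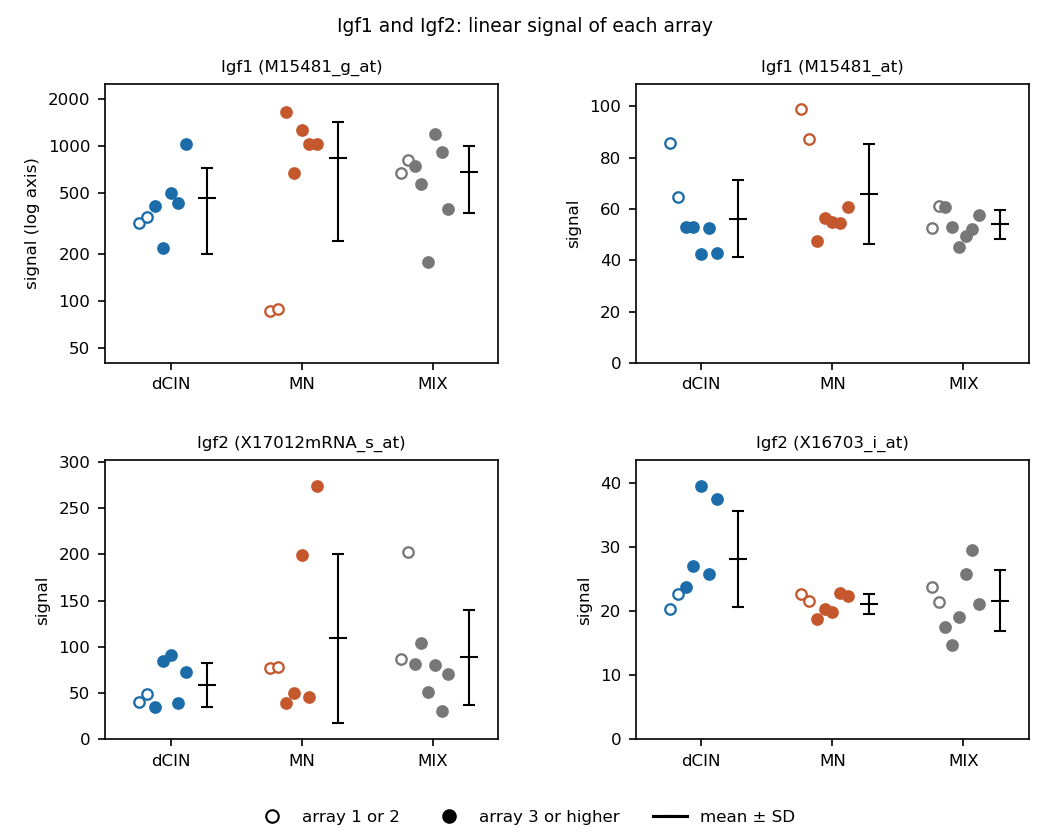
Linear signal (y axis, on a log axis for Igf1 M15481_g_at) of each array for 2 Igf1 and 2 Igf2 probe sets in dCINs, MNs and MIX (x axis), with open points for arrays 1 and 2, filled points for arrays of higher number, and the mean ± SD (n = 7, 7 and 8). MN arrays 1 and 2 have the 2 lowest signals in Igf1 M15481_g_at, 85.9 and 89.4, and the 2 highest in Igf1 M15481_at, 98.9 and 87.4.

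Igf2, a fetal growth factor made in the brain mainly by the choroid plexus, meninges and vessels, had 5 probe sets with differences on both sides of 0. The only Igf2 probe set under an unadjusted p of 0.05 was X16703_i_at, which had 20.4 to 39.6 in dCINs (median 25.8), 18.7 to 22.8 in MNs (median 21.6) and 14.7 to 29.5 in MIX (median 21.3). The dCIN arrays 3 to 7, 5 of 7, were above the highest MN array, and dCIN arrays 1 and 2 were not. The probe set was dim, with a mean of 23.6 over the 22 arrays, at percentile 8.86 of all probe sets. The log2 difference of dCINs minus MNs was 0.37 (SE 0.14, 95% interval 0.07 to 0.68, exact permutation p = 0.0122, limma adjusted p = 0.293), a 1.29-fold higher signal in dCINs. Over MIX the dCIN difference was also 0.37 (SE 0.15, limma adjusted p = 0.512). Within arrays 3 to 7 alone the difference of dCINs minus MNs was 0.54 (limma adjusted p = 0.0891), and within arrays 1 and 2 it was -0.04. Its partner X16703_r_at, from the same record, had 21.0 to 38.5 in dCINs, 18.1 to 26.0 in MNs and 17.4 to 30.8 in MIX, with a log2 difference of 0.16 (SE 0.14, adjusted p = 0.721). On both probe sets the highest dCIN arrays were 5 and 7, with 39.6 and 37.6 on X16703_i_at and 38.5 and 31.98 on X16703_r_at.

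The other Igf2 probe sets did not share that direction. X17012mRNA_s_at had 34.9 to 91.5 in dCINs (median 49.2), 38.8 to 274 in MNs (median 77.0) and 30.9 to 203 in MIX (median 80.9). Its log2 difference of dCINs minus MNs, -0.61 (SE 0.42, 95% interval -1.51 to 0.28, limma adjusted p = 0.701), came with 2 MN arrays, 5 and 7, at 199 and 274. E00988mRNA_s_at had 60.8 to 139 in dCINs, 64.8 to 107 in MNs and 68.6 to 84.7 in MIX, with a log2 difference of -0.01 (SE 0.16, adjusted p = 0.997). M17960_g_at had 65.6 to 78.8 in dCINs, 59.6 to 86.6 in MNs and 56.0 to 74.3 in MIX, with -0.07 (SE 0.09, adjusted p = 0.796). Pearson correlations between Igf2 probe sets over the 22 arrays ran from -0.226 to 0.683, the highest between the 2 probe sets of the same record.

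Igf1r, the receptor of both ligands, had 1 probe set, M27293_s_at. Its signal was 30.6 to 53.6 in dCINs (median 36.4), 34.7 to 49.7 in MNs (median 47.2) and 37.9 to 54.1 in MIX (median 45.3). The MN arrays lay between 45.9 and 49.7 except array 3, at 34.7. The dCIN arrays lay outside that range, with arrays 4 and 5 above every MN array and the others, at 30.6 to 45.6, below 45.9. Of these, 2 were also below MN array 3. The log2 difference of dCINs minus MNs was -0.19 (SE 0.14, 95% interval -0.48 to 0.11, limma adjusted p = 0.716).

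Igfbp5, a binding protein that holds IGFs in the extracellular matrix, was lower in dCINs on 1 of its probe sets, short of the threshold. The other, dimmer probe set had a difference near 0. On rc_AI029920_s_at the signal was 34.0 to 59.2 in dCINs (median 43.6), 43.0 to 110 in MNs (median 83.6) and 27.8 to 142 in MIX (median 54.3). MN arrays 4 to 7 were above the highest dCIN array, and MN arrays 1, 2 and 3, at 45.2, 50.3 and 43.0, lay among the dCINs. The log2 difference was -0.67 (SE 0.22, 95% interval -1.14 to -0.20), 1.59-fold higher in MNs, with an unadjusted p of 0.00842, a limma adjusted p of 0.161 and an exact permutation p of 0.0233. Within arrays 3 to 7 it was -0.82 and within arrays 1 and 2 it was -0.31. Without MN array 3 it was -0.79 with a limma adjusted p of 0.0530, and without MN array 1 it was -0.78 with 0.0950.

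The MIX arrays covered the range of both populations in this probe set, with a highest signal 5.12 times the lowest. The log2 difference of dCINs minus MIX was -0.45 (SE 0.28, limma adjusted p = 0.858), and that of MNs minus MIX was 0.22 (SE 0.28, adjusted p = 0.738). The second Igfbp5 probe set, M62781_at, had 27.4 to 44.0 in dCINs (median 29.7), 30.0 to 35.0 in MNs (median 31.3) and 28.8 to 37.3 in MIX (median 32.6). Its log2 difference of dCINs minus MNs was -0.00 with a 95% interval of -0.23 to 0.22 (limma adjusted p = 0.997). Of the dCIN arrays, 4 were below the lowest MN array, and array 5 was the highest at 44.0. Without dCIN array 5 the difference was -0.08 (limma adjusted p = 0.862). M62781_at was dim, with a mean of 32.4 over the 22 arrays, at percentile 23.4 of all probe sets. The 2 probe sets had a Pearson correlation of 0.151 over the 22 arrays, and the difference seen on the first was not seen on the second. Whether so dim a probe set could show such a difference was not tested.

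Igfbp2, the binding protein of the fetal brain and cerebrospinal fluid, lies next to Igfbp5 on chromosome 9 in the RefSeq gene table of the rat. Its probe set J04486_at had 151 to 384 in dCINs (median 195), 182 to 360 in MNs (median 284) and 174 to 319 in MIX (median 230). The log2 difference of dCINs minus MNs was -0.28 (SE 0.22, 95% interval -0.75 to 0.19, limma adjusted p = 0.716). The highest dCIN arrays were 1 and 2, at 384 and 302, and the other 5 had 151 to 207. The dCINs on arrays 3 to 7 averaged 182 and the MNs 248, a log2 difference of -0.41, while arrays 1 and 2 averaged 343 in dCINs and 334 in MNs, a difference of 0.03. The second probe set, M91595exon_s_at, had 30.9 to 41.5 in dCINs, 30.7 to 42.5 in MNs and 30.2 to 37.9 in MIX, with a log2 difference of -0.11 (SE 0.10, adjusted p = 0.721) and a correlation of 0.537 with the first.

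**Figure D4:**
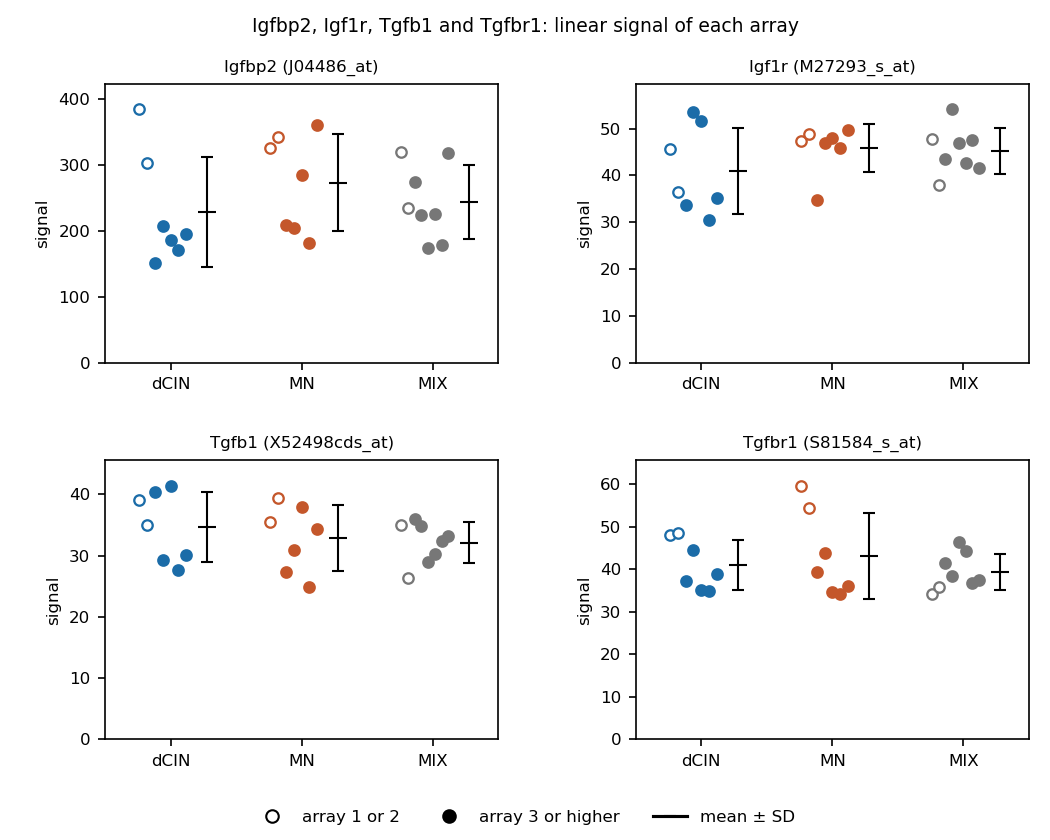
Linear signal (y axis) of each array for 1 probe set each of Igfbp2, Igf1r, Tgfb1 and Tgfbr1 in dCINs, MNs and MIX (x axis), with open points for arrays 1 and 2, filled points for arrays of higher number, and the mean ± SD (n = 7, 7 and 8). The groups overlap in all 4 panels, arrays 1 and 2 are the highest dCIN arrays for Igfbp2 and the highest of both labelled populations for Tgfbr1, and MN array 3 is the lowest MN array for Igf1r.

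Against the randomly sampled cells, no member was called in either population. For dCINs minus MIX, from a limma fit over all 22 arrays, the members had 0 calls of 19, against 0.476% of all probe sets, and 1 passed an unadjusted p under 0.05, against 7.14% (Igf2 X16703_i_at). Their median log2 difference was 0.03, and that of all probe sets was 0.02. For MNs minus MIX the members had 0 calls of 19, against 0.952% of all probe sets, and 1 passed an unadjusted p under 0.05, against 11.8% (Tgfb3 U03491_at). Their median log2 difference was 0.11, and that of all probe sets was 0.04, with 15 members above 0 and 4 below. The MIX mean lay between the dCIN and MN means in 10 of 19 members. The shares of all probe sets with such a MIX mean, or with a difference of MNs minus MIX above 0, were not counted.

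Single arrays recurred across the members. MN array 3, the array with the high Slc32a1 signal, had the lowest MN signal in 10 of 19 members, among them Tgfb3 U03491_at, Igfbp5 rc_AI029920_s_at, Igf1r and Igf1 M15481_at, but the highest in Igf1 M15481_g_at. MN array 7 had the highest MN signal in 8 of 19. Among dCINs, array 5 had the highest signal in 9 of 19 and array 1 in 6. The members on an array share its RNA, so these counts describe the arrays. The median of MN array 3 over all probe sets, 44.3, was also the lowest of the MN arrays, against 45.9 to 50.8 on the others. The shares of all probe sets in which each of these arrays was the lowest or highest of its group were not counted. How far the cell content or the lower median of MN array 3 bears on its low growth factor signals was not tested.

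Whether Tgfb3 and Igfbp5 passed the threshold depended on the processing, while U03491_at, U03491_g_at and rc_AI029920_s_at were lower in dCINs than in MNs in each setting run. Tgfb3 U03491_at passed the threshold in 6 of 14 other settings of the dCIN and MN comparison, with adjusted p from 0.0294 to 0.415 and log2 differences from -0.73 to -0.46. Igfbp5 rc_AI029920_s_at passed in 6 of the 13 settings that kept it, with adjusted p from 0.00222 to 0.348 and differences from -1.04 to -0.44. Tgfb3 U03491_g_at passed in 1 of 14, with array weights (-0.45, adjusted p = 0.0167), Igf1 M15481_g_at in 3 of 14 and Igf2 X16703_i_at in 1 of 13. The other 14 probe sets passed in none of these settings.

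**Figure D5:**
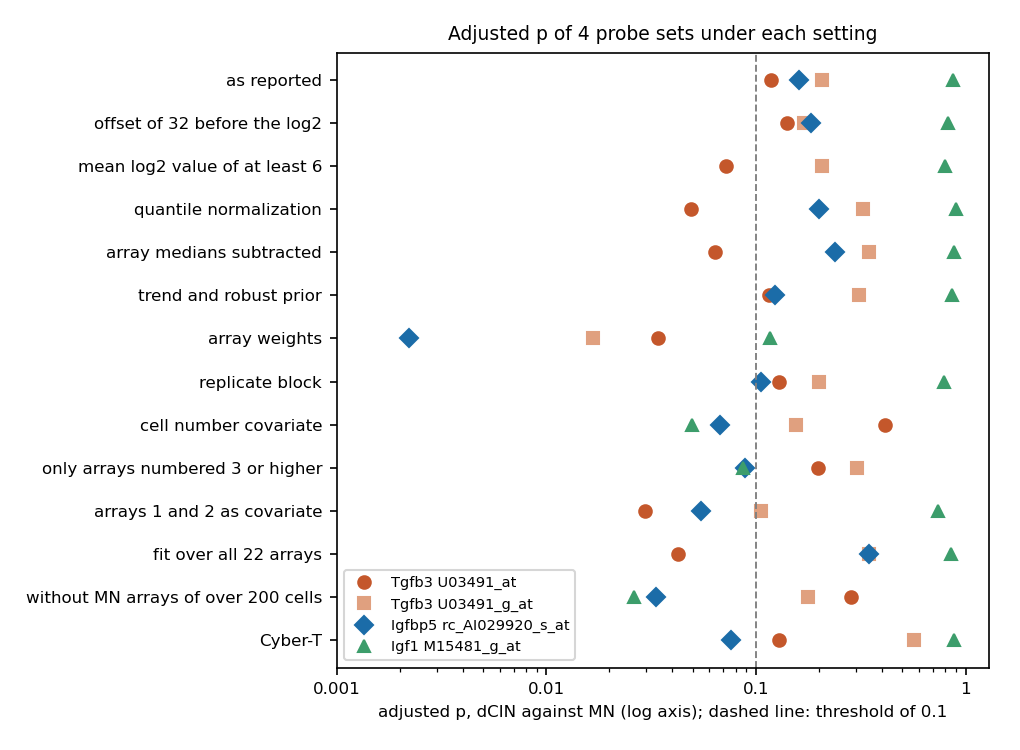
Benjamini-Hochberg adjusted p (x axis, log axis) of 4 probe sets for dCINs against MNs under the reported fit and the alternatives to it (y axis), with the threshold of 0.1 as a dashed line. Igfbp5 has no point under the least mean log2 value of 6, which it did not reach. Tgfb3 U03491_at runs from 0.0294 to 0.415 and Igfbp5 rc_AI029920_s_at from 0.00222 to 0.348, on both sides of the line.

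Other genes of the 2 pathways were taken from a list of 78 insulin, IGF, TGF-beta, BMP and GDNF genes with their binding proteins, receptors and Smads. Of these, 15 genes with 21 probe sets were measured, and 0 were called in each of the 3 comparisons. At an unadjusted p under 0.05, 1 was higher in dCINs than in MNs, 1 was lower in dCINs than in MIX, and 2 were lower in MNs than in MIX, out of 21 each time. Over all probe sets the shares at that p were 10.9%, 7.14% and 11.8% in the same order of comparisons, so these counts did not exceed the background. The smallest p belonged to Smad9, a transcription factor downstream of BMP receptors, whose probe set AF012347_at averaged 151 ± 55.2 in dCINs, 88.7 ± 50.2 in MNs and 179 ± 126 in MIX. Its log2 difference of dCINs minus MNs was 0.94 (SE 0.40, limma adjusted p = 0.385). Igfbp1, another IGF binding protein, followed with -0.22 (SE 0.13, adjusted p = 0.598) on M58634_at, and Smad2, which the TGF-beta type I receptor phosphorylates, with -0.20 (SE 0.14, adjusted p = 0.705) on AB017912_g_at. The median log2 difference over the 21 probe sets was -0.02.

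The probe set of another gene most like each member was found by the Pearson correlation of log2 signals over the 22 arrays, a description in which points share groups and array effects. Tgfb3 U03491_at was most like Map2k1, a kinase of the MAP kinase cascade (r = 0.922), and Tgfb3 U03491_g_at most like Kcna1, a potassium channel (0.688). Igf1 M15481_at was most like P2rx2, an ATP-gated channel (0.960), while Igf1 M15481_g_at was most like Hnrnpu, a nuclear RNA-binding protein (0.811). Igfbp5 rc_AI029920_s_at had Nrp1, a semaphorin receptor, at 0.737, Igfbp2 J04486_at had Slc1a2, a glutamate transporter of astrocytes, at 0.738, and Igf1r had Adra1d, an adrenergic receptor, at 0.676. Probe sets of the same gene thus had different nearest partners in each gene with more than 1 probe set.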

How the data were processed

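Amplified RNA of dCINs, MNs and MIX was measured on 22 RN_U34 arrays. The deposited values are linear intensities, which the authors made from perfect match probes by global background subtraction, quantile linear transformation, quantile projection normalization over all arrays and Li-Wong summaries, with a universal minimum subtracted. The version of the affy package is not given in the sources used here. Of 1050 probe sets, 961 were matched to 1 symbol in the platform annotation, 7 to several and 82 to none. The probe sets that the paper gives for Gfap were not matched to its symbol. Genes counted as measured are those matched by symbol. Groups came from the sample labels, and 0 columns belonged to other samples.

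Intensities were log2-transformed and compared in R 4.3.3 by limma 3.58.1 (eBayes without a trend or robust prior), dCINs and MNs on 14 arrays and the MIX contrasts on 22. Calls were made at a Benjamini-Hochberg adjusted p under 0.1. The study used another rule, with FDRs from a mixed model and an average rank over limma, Cyber-T and SAM, which was not used here. By that rule the study lists Tgfb3 U03491_at and Igfbp5 rc_AI029920_s_at among its differentially expressed genes, both higher in MNs. In the study's limma FDRs Tgfb3 was just under 0.1 and Igfbp5 over it. In its Cyber-T FDRs Igfbp5 was under 0.1 and Tgfb3 over it, and in its SAM FDRs both were under 0.1. Every probe set of the members was named, and of the other pathway genes the called ones and the 3 of smallest p. The code was tested on simulated data. The members, lists and alternatives were chosen with earlier results of these data known. The alternatives were an offset of 32, a least mean log2 value of 6, quantile normalization, median centring, a trended robust prior, array weights, a replicate block, cell number as a covariate, arrays 1 and 2 left out or as a covariate, other sets of arrays, a threshold of 0.05, Cyber-T (window of 101, prior weight of 10) and leaving out each array. Cyber-T was written after its published description. The number of arrays limits the precision. Figures were drawn with matplotlib 3.10.9 in Python 3.11.15.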

Additional observations from a re-analysis of the deposited data

Results flagged for a closer look

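A single array stood far from the rest of its group in 2 of the 57 sets of signals tested, 1 for each member probe set and group, and chance gives such a gap in about 1 set of 20. Over all probe sets it was seen in 236 of 3150 sets, or 7.49%. Igf1r M27293_s_at had 34.7 on MN array 3, while the other 6 MN arrays had 45.9 to 49.7. Igf2 X16703_r_at had 18.1 on MN array 5, while the other 6 had 22.3 to 26.0. Neither probe set was called in any setting. The cause of either value was not tested.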

How the results depend on the processing

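Between dCINs and MNs 0 members were called. The count was 1 with the filter on dim probe sets, quantile normalization, subtracted array medians, the fit over all 22 arrays and Cyber-T. It was 2 with the cell number covariate, arrays 1 and 2 as a covariate and without the MN arrays of over 200 cells, and 3 with array weights and with arrays of number 3 or higher only. It remained 0 with the other 4 settings, and was 0 to 2 when each array was left out. For dCINs minus MIX it was 1 with the cell number covariate (Igf1 M15481_g_at, -1.76, adjusted p = 0.0766), and 0 whichever array was left out. For MNs minus MIX it was 2 with array weights (both Tgfb3 probe sets, 0.47 and 0.41), and 0 to 1 with arrays left out, the call being Tgfb3 U03491_at without MN array 3 (0.68, adjusted p = 0.0640).

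Some log2 differences changed sign, none of them called before or after. For dCINs minus MNs these were Igfbp5 M62781_at (0.00213 with the offset, 0.00897 with medians subtracted, 0.0107 with cell number), Igf2 E00988mRNA_s_at (0.0139 with quantile normalization, 0.00543 with medians subtracted, 0.0209 without the MN arrays of over 200 cells), Igf1 X06107_i_at (0.0280 with array weights), Igf1 M15481_at (-0.22 as reported, 0.0124 with cell number, 0.00274 without the MN arrays of over 200 cells), Igf1 D00698_s_at (0.10 with arrays 3 or higher) and Tgfbr1 S81584_s_at (0.12 with array weights, 0.14 with cell number, 0.0207 with arrays 3 or higher, 0.12 without the MN arrays of over 200 cells). For dCINs minus MIX they were Tgfb3 U03491_at (-0.14 as reported, 0.11 with cell number) and U03491_g_at (0.00576 with arrays 3 or higher). With arrays left out, Igf1 D00698_s_at ran from -0.16 to 0.0214, Igf2 E00988mRNA_s_at from -0.13 to 0.0710, Igfbp5 M62781_at from -0.0810 to 0.0328, Tgfbr1 S81584_s_at from -0.10 to 0.0295, and U03491_g_at for dCINs minus MIX from -0.16 to 0.00822. The cause was not tested.

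Over all probe sets 40 were called between dCINs and MNs, 76 with array weights and 83 with arrays 1 and 2 as a covariate. For dCINs minus MIX 5 were called, 68 with cell number, 2 with quantile normalization or the trended prior and 1 at the stricter threshold, and 1 to 8 with arrays left out. For MNs minus MIX 10 were called, 33 with array weights, 3 with quantile normalization and 2 at the stricter threshold, and 2 to 14 with arrays left out. The labels do not say whether the array numbers pair dCIN with MN arrays. The deviations of same-numbered arrays correlated at -0.192 to 0.532, over 0.1 in 5 of 7 pairs and highest for number 1. Of the 7 dCIN arrays, 2 were closest to their own number. Whether the number marks a shared batch was not tested. With the number as a replicate block 0 members and 55 probe sets were called.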
